A study of Homo sapiens with 4 samples.

Results

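The Kruppel-like factors (KLF proteins) are transcription factors that bind GC-rich DNA and CACCC boxes through zinc fingers at their C-terminal end. The 10 genes described here are KLF2, KLF3, KLF4, KLF6, KLF9, KLF10, KLF11, KLF12, KLF13 and KLF16, and their members were all probe sets of the deposited table that the platform annotation assigns to 1 of these symbols alone. This gave 35 of the table's 54613 probe sets, leaving aside control probe sets. RNA came from Raji, an established Burkitt lymphoma B-cell line. DLEU1, a long non-coding RNA gene, had been downregulated in 1 Raji clone by TALENs, engineered nucleases, and this clone was compared with a wild-type clone as control, each on 2 HG-U133 Plus 2 arrays. The 2 genotypes are 1 clone each, so a difference between clones and an effect of DLEU1 cannot be told apart. The protocol text on DLEU1-targeting TALENs is the same for all 4 arrays, control arrays included, and only the genotype label separates the clones. The labels do not say whether the duplicates were separate cultures. Every p-value below thus reflects array-to-array spread alone, pooled in part over probe sets, and that spread may be technical.

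KLF proteins differ mainly in their N-terminal parts, which recruit other proteins. KLF2, KLF4 and KLF6 largely activate transcription, with acetyltransferases such as EP300 and CREBBP as partners. KLF3 and KLF12 repress through the corepressor CtBP. KLF9, KLF10, KLF11, KLF13 and KLF16 bind the SIN3A corepressor, which brings histone deacetylases. In lymphocytes KLF2 is known for maintaining quiescence and for controlling homing receptors, and KLF4 for restraining B-cell proliferation.

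The deposited intensities were not on a common scale, with 2% trimmed means of 131 and 163 in the control clone and 172 and 197 in the DLEU1-downregulated clone. All intensities below are therefore quantile-normalized, which gives every array the same distribution, unless they are called deposited. A log2 change is the DLEU1-downregulated mean minus the control mean of log2(intensity + 16), which understates the change of dim probe sets. The test was limma with Benjamini-Hochberg adjustment over 32768 probe sets, and a probe set is said to have risen or fallen where the adjusted p was under 0.05. The median log2 change of all tested probe sets was 0.01, against 0.16 for the values as deposited. Normalization bears on the calls, since 5588 probe sets rose and 5485 fell after it, against 5620 and 1673 as deposited, while median centring gave 10420 and 2482. DLEU1 itself read 1400 and 1300.5 in the control clone and 504.5 and 513.3 in the DLEU1-downregulated clone (log2 change -1.38 ± 0.07 SE, limma adjusted p = 2.92e-06). Among B-cell markers, all 5 with a probe set of their own were tested (MS4A1, CD79A, CD79B, PAX5 and CD22), and their summed intensity was 15134 to 15206 in the control clone and 12908 to 12975 in the DLEU1-downregulated clone. By brightest probe set, 4 of these 5 fell, with CD22 going from 1135 to 590.5 (log2 change -0.93, limma adjusted p = 2.56e-05). MS4A1 did not pass (-0.09, limma adjusted p = 0.110), but its probe sets disagreed, and of the others 1 rose and 2 fell. None of the 5 was called as deposited by brightest probe set, where the smallest limma adjusted p was 0.0693 (CD22). The part of these shifts in the KLF results was not tested. The summed intensity of 5 T-cell markers was 46.8 to 51.5 against 39.5 to 48.8, and of 4 myeloid markers 52.2 to 53.2 against 57.9 to 69.4. Of 5 fibroblast and endothelial markers it was 200.8 to 281.2 against 117.6 to 189.3. Here COL1A2 fell (37.8 to 9.7, log2 change -1.14, limma adjusted p = 0.0239), also as deposited (0.00129). COL1A2 passed the brightness filter only through the control clone. COL1A1 did not pass in its brightest probe set, while 2 of its others rose. No T-cell or myeloid marker passed by brightest probe set. No marker of these lists read 0 on all arrays.

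In the DLEU1-downregulated clone KLF12 was lower, and KLF10, KLF13 and KLF16 were higher. Of the 35 probe sets, 26 were bright enough to be tested, and of these 4 rose and 10 fell, or 53.8%, against a background of 33.8% of all tested probe sets that passed in either direction. The background was 17.1% for rises and 16.7% for falls. All 4 rises belonged to the SIN3A-binding KLF genes. The falls were 6 KLF12, 1 KLF3 and 3 KLF6 probe sets. Of these, KLF12 208467_at and 239019_at entered the tested set only through the high control clone, which raises the share, so the counts describe the tested probe sets and not all members. The 2 groups did not overlap in 21 of the 26 tested probe sets, where 66% of all tested probe sets did not overlap. The 21 include KLF2 219371_s_at, KLF12 208467_at, 239019_at and 238940_at and KLF13 1564463_at, tested only through the control clone. Their lower values were in part set by the brightness filter, so the 21 cannot be read against the 66%. The median log2 change of the tested KLF probe sets was -0.36. It includes these probe sets and 221841_s_at of KLF4 and 228474_s_at of KLF9, whose DLEU1-downregulated means alone lay below the filter. By brightest probe set, 3 of 9 tested genes rose and 2 fell, against 20.6% of 13292 genes in each direction and 41.2% in either. As deposited 3 genes rose and 1 fell, with backgrounds of 20.3% and 5.74%. On the values as deposited, 5 KLF probe sets rose and 7 fell, with backgrounds of 17.2% and 5.11%, or 22.3% in either direction. Of these, 4 rises and 7 falls were the same probe sets on both scales.

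**Figure D1:**
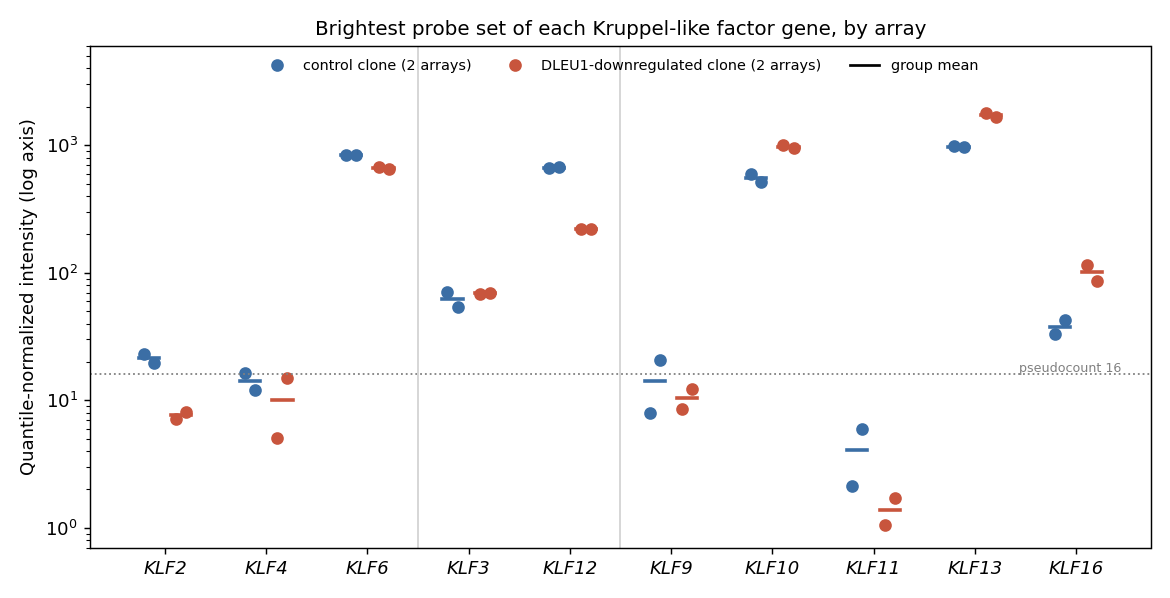
Quantile-normalized intensity (log axis) of the brightest probe set of each KLF gene on the 2 control and the 2 DLEU1-downregulated arrays, with a bar at each group mean and grey lines between activators (left), CtBP-binding (middle) and SIN3A-binding genes (right). KLF12 sat near 666 in the control clone and near 219 on the others, KLF10, KLF13 and KLF16 sat higher in the DLEU1-downregulated clone, and KLF2, KLF4, KLF9 and KLF11 lay around or below the added 16.

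**Figure D2:**
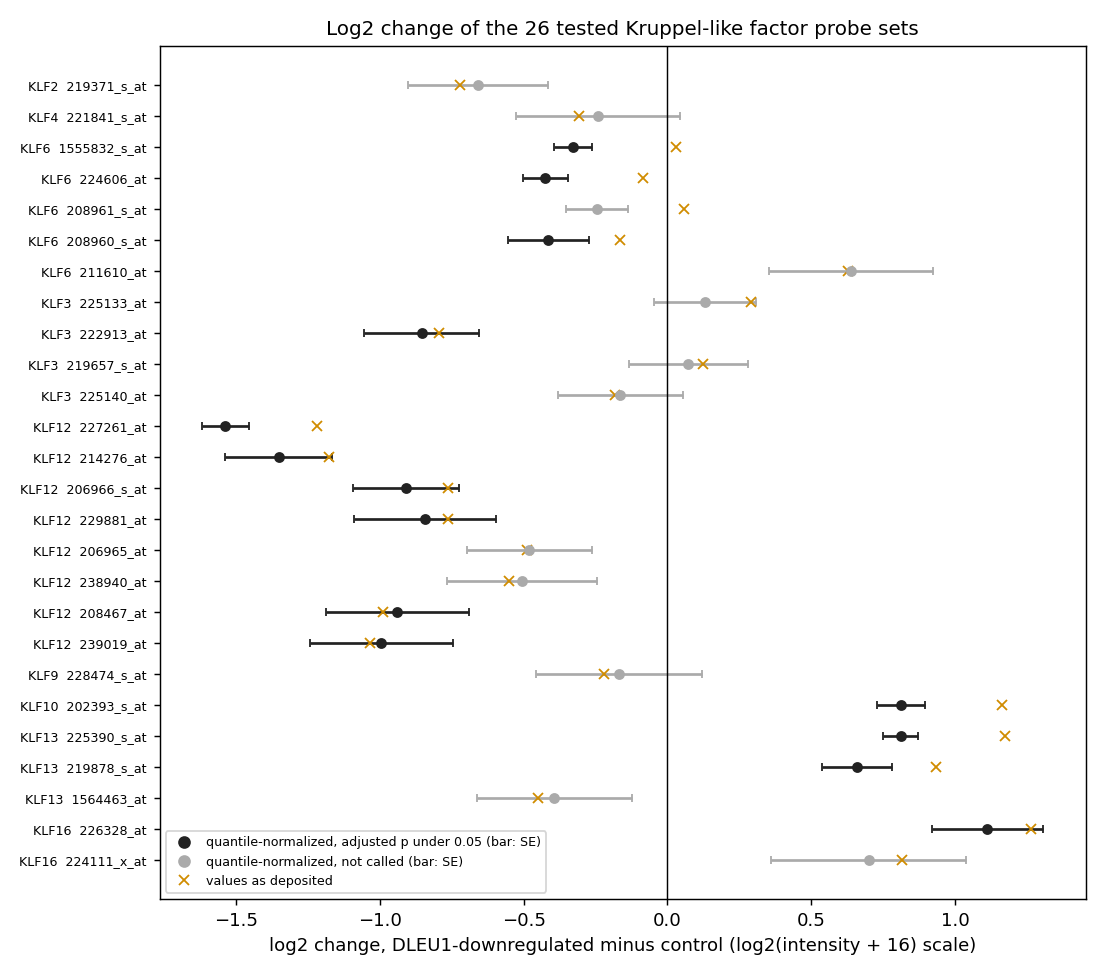
Log2 change with its SE for each of the 26 tested KLF probe sets after quantile normalization (dots, black where adjusted p was under 0.05), beside the log2 change of the values as deposited (crosses). The KLF12 dots all lie below 0, in part through the brightness filter for 208467_at, 239019_at and 238940_at. The bright KLF6 probe sets lie below 0 as dots and near 0 as crosses. The called KLF10, KLF13 and KLF16 dots lie above 0 on both scales.

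KLF12 is a repressor first described at the promoter of the gene for AP-2 alpha. Its brightest probe set, 227261_at, read 661 and 671 in the control clone and 218.5 and 219 in the DLEU1-downregulated clone, or 665.9 ± 6.7 against 219 ± 0.67 (SD, n = 2 arrays each). The groups lay far apart compared with the spread within each, and the 3.04-fold difference had a log2 change of -1.54 ± 0.08 (SE) with a limma adjusted p = 3.97e-06. The deposited intensities were 650 and 523 against 224.7 and 259.9, with a log2 change of -1.22. By brightest probe set, 1.06% of the 13292 genes had a lower log2 change than KLF12.

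The gene is covered by 8 probe sets, all of them tested. All were lower on both DLEU1-downregulated arrays than on both control arrays, in part through the brightness filter for 208467_at, 239019_at and 238940_at. Probe set 214276_at read 155 and 110 in the control clone and 42.8 and 40.3 on the others (log2 change -1.35 ± 0.19 SE, limma adjusted p = 5.89e-04). Probe set 206966_s_at read 94.2 and 78.2 against 34.1 and 42.7, a log2 change of -0.91 (limma adjusted p = 0.00489). Probe set 229881_at read 56.4 and 74.3 against 39.8 and 20.4, a log2 change of -0.84 (limma adjusted p = 0.0278). The remaining 4 were dimmer. Of these, 208467_at (28.6 and 21.9 against 6.2 and 4.7) and 239019_at (24.3 and 22.3 against 4.5 and 2.9) fell by 0.94 and 0.99 on the log2 scale. Both passed the brightness filter (a mean intensity of 11.4 over the 4 arrays) only through the control clone, so a tested fall was in part set by the filter, and they support nothing here. Without control replicate 1 neither was bright enough to be tested. Probe sets 206965_at and 238940_at did not pass, with log2 changes of -0.48 (limma adjusted p = 0.129) and -0.50 (limma adjusted p = 0.176). Probe sets of 1 gene share its RNA and are not separate replicates. Without replicate 1 of the DLEU1-downregulated clone 206966_s_at and 208467_at lost their calls (limma adjusted p = 0.0508 and 0.0632), and without its replicate 2 so did 229881_at, 208467_at and 239019_at (0.196, 0.0843 and 0.0679). Probe set 229881_at also lost its call without control replicate 2 (limma adjusted p = 0.130). The calls of 227261_at and 214276_at held in all 15 alternative settings run, with log2 changes from -1.60 to -1.17 and from -1.63 to -0.89.

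KLF12 lies on chromosome 13, as DLEU1 does. Of the 20 nearest tested genes, 10 on each side of KLF12, 1 rose and 10 fell, where 20.6% of all tested genes rose and 20.6% fell, with a median log2 change of -0.30 and a range of -0.93 to 0.55. The median of the chromosome's 241 tested genes was -0.17. The part of this regional shift in the KLF12 result was not tested.

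**Figure D3:**
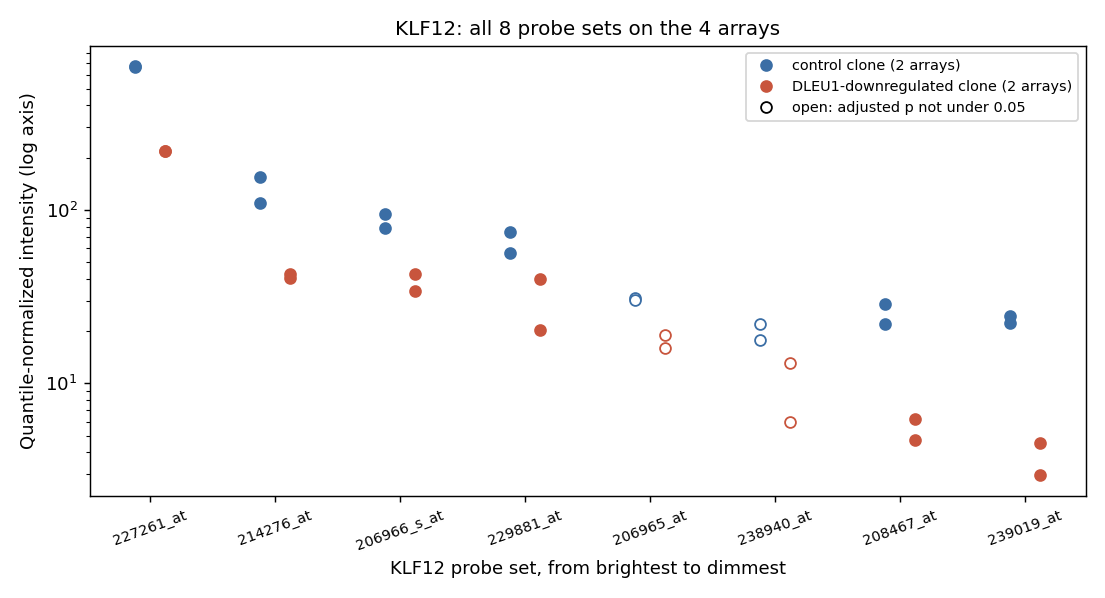
Quantile-normalized intensity (log axis) of the 8 KLF12 probe sets, from brightest to dimmest, on the 2 control and the 2 DLEU1-downregulated arrays, with open symbols where the adjusted p was not under 0.05. In each probe set both DLEU1-downregulated arrays lie below both control arrays, in part through the brightness filter for 208467_at, 239019_at and 238940_at.

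The promoter table from RefSeq (build GRCh38.p14) holds windows for 8 of the 10 genes, 12 windows in all, with 4 starts for KLF12. The stretches printed are the 250 bases upstream of the start, shown for 3 of the members that changed (KLF12 fell, KLF13 and KLF16 rose) and, for KLF2, because the stretch carries a rare motif. For KLF12, KLF13 and KLF16, capitals mark the motifs that KLF and Sp proteins are known to bind, the CACCC box and the GC box GGGCGG, each on both strands. In KLF13 they also mark the CCAAT box, on both strands. For KLF2 capitals mark only a palindromic MEF2 motif, searched in exactly the form shown.
KLF12, chr13:74134405-74134654, minus strand: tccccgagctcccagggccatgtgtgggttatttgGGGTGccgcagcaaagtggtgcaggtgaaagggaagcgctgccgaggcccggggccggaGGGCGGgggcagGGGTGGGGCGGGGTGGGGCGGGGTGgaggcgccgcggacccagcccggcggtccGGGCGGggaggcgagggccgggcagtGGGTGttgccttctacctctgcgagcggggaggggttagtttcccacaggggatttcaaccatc
KLF13, chr15:31326585-31326834, plus strand: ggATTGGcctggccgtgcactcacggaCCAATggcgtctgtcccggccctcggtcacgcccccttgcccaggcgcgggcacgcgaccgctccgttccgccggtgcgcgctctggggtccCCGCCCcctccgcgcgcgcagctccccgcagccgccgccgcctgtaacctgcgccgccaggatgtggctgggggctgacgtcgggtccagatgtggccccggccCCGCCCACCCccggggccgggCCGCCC
KLF16, chr19:1863580-1863829, minus strand: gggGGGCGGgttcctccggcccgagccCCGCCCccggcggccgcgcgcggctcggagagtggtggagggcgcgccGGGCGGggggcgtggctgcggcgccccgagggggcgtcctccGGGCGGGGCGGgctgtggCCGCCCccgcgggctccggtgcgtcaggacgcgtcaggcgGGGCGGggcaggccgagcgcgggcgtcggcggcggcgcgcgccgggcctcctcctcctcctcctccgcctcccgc
KLF2, chr19:16324576-16324825, plus strand: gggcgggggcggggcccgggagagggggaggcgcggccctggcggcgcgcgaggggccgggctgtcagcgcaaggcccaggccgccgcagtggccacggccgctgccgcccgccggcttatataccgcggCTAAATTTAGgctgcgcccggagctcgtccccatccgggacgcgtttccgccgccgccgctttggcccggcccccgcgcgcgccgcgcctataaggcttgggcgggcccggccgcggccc
On both strands together, the KLF12 stretch held CACCC 5 times and GGGCGG 4 times, with 2 of the GC boxes sharing a base with a CACCC match. The KLF13 stretch held CACCC 1 time, GGGCGG 3 times and CCAAT 2 times, and the KLF16 stretch held GGGCGG 7 times and no CACCC. Of the 35116 windows of this length in the table, 54.7% held CACCC, 42.6% held GGGCGG and 32% held CCAAT, so these motifs are common. The palindromic MEF2 motif was in 20 of them, or 0.057%, KLF2 included. The other 3 KLF12 starts held no GGGCGG, and 1 of them held CACCC 5 times. A match is a description of the sequence and not a measured site.

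KLF3, the other CtBP-binding member, is a repressor with known roles in B cells and fat cells. Its 4 probe sets, all tested, disagreed. Probe set 222913_at read 50.4 and 58.7 in the control clone and 23.9 and 22 in the DLEU1-downregulated clone, and fell by 0.85 ± 0.20 (SE) on the log2 scale (limma adjusted p = 0.0098). The brightest, 225133_at, read 71 and 53.7 against 68.6 and 69.9, with overlapping groups (log2 change 0.13, limma adjusted p = 0.623). Probe sets 219657_s_at and 225140_at had log2 changes of 0.07 (limma adjusted p = 0.825) and -0.16 (limma adjusted p = 0.610). The fall of 222913_at lost its call without either DLEU1-downregulated array (limma adjusted p = 0.0528 without replicate 1 and 0.0653 without replicate 2), while its log2 change stayed between -0.96 and -0.78 with 1 array left out. A change of KLF3 thus rests on 1 of its 4 probe sets.

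Among the SIN3A-binding genes, KLF13, known for its part in late chemokine expression of T cells, rose. Its brightest probe set, 225390_s_at, read 981 and 961 in the control clone and 1777 and 1654 in the DLEU1-downregulated clone. All values of 1 clone lay above all values of the other, with a 1.77-fold difference and a log2 change of 0.81 ± 0.06 (SE, limma adjusted p = 1.96e-05). A second probe set, 219878_s_at, read 147 and 135.5 against 216 and 249, a log2 change of 0.66 ± 0.12 (SE, limma adjusted p = 0.0029). Probe set 1564463_at was dim (12.5 and 23.9 against 10.9 and 8.5) with a log2 change of -0.39 (limma adjusted p = 0.306). It passed the brightness filter only through the control clone, and 230094_at was too dim to be tested. The calls of the first 2 held in all 15 alternative settings.

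KLF10, induced early by TGF-beta, has 1 probe set. It read 590 and 511 in the control clone and 995 and 958 in the DLEU1-downregulated clone, a 1.77-fold difference with a log2 change of 0.81 ± 0.08 (SE, limma adjusted p = 1.03e-04). The groups did not overlap, and the call held in all 15 alternative settings with log2 changes from 0.71 to 1.21. By brightest probe set, 5.2% of the 13292 genes had a higher log2 change than KLF10 and 5.23% a higher one than KLF13.

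KLF16, a factor first studied at dopamine receptor promoters, rose in 1 of its 2 probe sets. Probe set 226328_at read 33.2 and 42.6 in the control clone and 116 and 86.4 in the DLEU1-downregulated clone, a 2.67-fold difference with a log2 change of 1.11 ± 0.19 (SE, limma adjusted p = 0.0022). This change was exceeded by 1.77% of genes. Probe set 224111_x_at, whose suffix marks possible cross-hybridisation, read 15.3 and 52.8 against 69.4 and 50.5, so that the groups overlapped (log2 change 0.70, limma adjusted p = 0.151), although it was called as deposited (log2 change 0.81, limma adjusted p = 0.0123) and without control replicate 2 (1.32, limma adjusted p = 0.00702). Without control replicate 1 its log2 change was 0.13 (limma adjusted p = 0.70), so its value rested on 1 control array.

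KLF9, a gene induced by glucocorticoids and thyroid hormone, and KLF11, another TGF-beta-induced member, were dim. Of 5 KLF9 probe sets, 1 was tested, and it read 8 and 20.6 against 8.6 and 12.3 (log2 change -0.17, limma adjusted p = 0.699). Its DLEU1-downregulated mean alone lay below the brightness filter. All KLF9 values lay between 0.325 and 20.6. Both KLF11 probe sets were too dim to be tested, with values from 0.93 to 6.4. The table holds no detection calls, so whether KLF9 and KLF11 were above background is unknown.

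Of the activators, KLF6, a widely expressed early-response factor, was the one with bright probe sets, and its result depended on the scaling. Probe set 1555832_s_at read 834 and 843 in the control clone and 677 and 653 in the DLEU1-downregulated clone after quantile normalization (log2 change -0.33 ± 0.07 SE, limma adjusted p = 0.00491). The deposited values of the same probe set were 810.8 and 651.5 against 702.6 and 782.9, which overlap, and gave a log2 change of 0.03 (limma adjusted p = 0.955). Probe sets 224606_at and 208960_s_at fell by 0.42 and 0.41 on the log2 scale (limma adjusted p = 0.00294 and 0.0493) and were called neither as deposited (log2 changes -0.09 and -0.17) nor when arrays were centred on their medians (-0.04 and -0.12). Scaled to a shared trimmed mean, all 3 fell, by 0.29, 0.40 and 0.46 on the log2 scale. After quantile normalization, 1555832_s_at lost its call without replicate 2 of the DLEU1-downregulated clone (limma adjusted p = 0.0507) and without the intensity trend (0.0728), and 208960_s_at without any 1 array other than control replicate 1 (0.107 to 0.255). Probe set 208961_s_at had a log2 change of -0.25 (limma adjusted p = 0.115). The dimmest, 211610_at, went the other way (6.5 and 20.2 against 33.1 and 24.2, log2 change 0.64, limma adjusted p = 0.124, with 1.01 and 0.0385 without control replicate 2 but 0.30 and 0.441 without control replicate 1). Averaged over its 5 probe sets, KLF6 had a log2 change of -0.15 (limma adjusted p = 0.277).

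KLF2 and KLF4 were at the lower end of the tested range. The KLF2 probe set 219371_s_at read 23.2 and 19.5 in the control clone and 7.2 and 8.1 in the DLEU1-downregulated clone. The groups did not overlap, and the log2 change of -0.66 ± 0.24 (SE) had a limma adjusted p = 0.0676. It passed with a common trimmed mean (log2 change -0.86, limma adjusted p = 0.0204) and without the intensity trend (limma adjusted p = 0.0252). However, 219371_s_at cleared the brightness filter (11.4) only through the control clone. A tested fall was thus in part set by the filter, and these calls support nothing here. Without control replicate 1 it was not bright enough to be tested. The other KLF2 probe set was not tested (10.8 and 3.1 against 6.1 and 1.7). The tested KLF4 probe set read 16.4 and 12.1 against 5 and 14.9, with overlapping groups (log2 change -0.24, limma adjusted p = 0.563). Its DLEU1-downregulated mean alone lay below the brightness filter, and the other KLF4 probe set was not tested (1.8 to 11).

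Among 16 other genes of the KLF and Sp family, 7 were tested by their brightest probe set, of which 1 rose, 2 fell and 4 did not pass. For this and the following lists, 20.6% of all genes rose and 20.6% fell by brightest probe set, against 20.3% and 5.74% as deposited. KLF15, a regulator of amino acid and glucose metabolism and a target of glucocorticoids, read 467 and 452 in the control clone and 54.8 and 66 in the DLEU1-downregulated clone (log2 change -2.64 ± 0.12 SE, limma adjusted p = 2.13e-06). Its second probe set also fell, and 0.181% of genes had a lower log2 change. SP1, the founding factor of GC-box binding, fell by 0.57 in its brightest probe set (limma adjusted p = 5.62e-04), while the remaining 2 tested ones got no call and the values as deposited gave -0.21 (limma adjusted p = 0.608). SP4, a relative best known from neurons, rose by 0.36 (limma adjusted p = 0.0243). This call was lost without control replicate 2 (0.22, limma adjusted p = 0.103) and without replicate 1 or 2 of the DLEU1-downregulated clone (0.144 and 0.0860). A further 8, KLF1, KLF5, KLF7, KLF8 and KLF17 among them, were too dim to be tested, and SP9 had no probe set of its own.

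Of 13 tested cofactors that KLF proteins bind, 6 fell and 7 did not pass after quantile normalization. As deposited, the smallest limma adjusted p among them was 0.0915 (CTBP1), and the sign turned for some, RBBP4 among them. The median log2 change was -0.18. CTBP2, a corepressor bound by KLF3 and KLF12, fell by 0.68 in a cross-hybridising probe set (80.8 to 44.6, limma adjusted p = 0.0157), and no call was made for the 4 further tested ones. The CTBP2 call was lost without control replicate 2 (limma adjusted p = 0.0651) and without replicate 1 or 2 of the DLEU1-downregulated clone (0.107 and 0.0618). SAP30, a SIN3A complex subunit, fell by 0.46 in a probe set that may also cross-hybridise (limma adjusted p = 6.47e-04), with 2 further probe sets also lower. SIN3A fell by 0.36 in its brightest probe set (limma adjusted p = 0.0238), whereas its other 2 tested probe sets rose. The fall lost its call without those same 3 arrays (limma adjusted p = 0.100, 0.101 and 0.128). RBBP4, a histone-binding subunit, fell by 0.24 in its brightest probe set, which may cross-hybridise (limma adjusted p = 0.00254), and of the others 1 fell and 2 rose.

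Of 18 tested regulators of KLF genes and proteins, 2 rose and 7 fell (3 and 4 as deposited), with a median log2 change of -0.18. MEF2A, of the family that the ERK5 kinase uses to switch on KLF2, read 1052 and 1104 in the control clone and 521 and 482 in the DLEU1-downregulated clone (log2 change -1.08, limma adjusted p = 1.13e-05). MEF2C, its relative in B cells, read 2356 and 2326 against 1423 and 1404 (log2 change -0.72, limma adjusted p = 1.38e-05), and passed in 2 of its 3 tested probe sets, but did not pass as deposited (-0.36). FOXO1, an upstream factor of KLF2 in lymphocytes, read 370.5 and 371 against 166 and 142 (log2 change -1.19, limma adjusted p = 5.82e-05). NR3C1, the glucocorticoid receptor that induces KLF9 and KLF15, read 1402 and 1521 against 753 and 729 (log2 change -0.96, limma adjusted p = 1.26e-05), and its other 4 tested probe sets also fell. The NR3C1 values printed are from a probe set that may cross-hybridise. The 2 that rose, named after their values were seen, were the ubiquitin ligases WWP1, which marks KLF2 for degradation (log2 change 0.84, limma adjusted p = 1.15e-04), and SMURF1 (0.64, limma adjusted p = 0.0029). The other 3 tested SMURF1 probe sets got no call. Falls not named above were MAP2K5 (-0.85), FOXO3 (-0.51) and TGFBR1 (-0.54), with FOXO3 and TGFBR1 not called as deposited.

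Genes reported as KLF targets went both ways. Of 9 tested targets of KLF2 and lymphocyte homing genes, 3 rose and 3 fell (3 and 1 as deposited). The homing receptor CXCR5 fell by 1.67 (368.7 to 105, limma adjusted p = 8.59e-06) and the complement receptor CR2 by 0.71 (limma adjusted p = 1.59e-05), the latter without a call as deposited (-0.35). The chemokine receptor CCR7 rose by 0.26 (limma adjusted p = 0.0193) and the nitric oxide synthase NOS3 by 0.96 from a dim 23.2 (limma adjusted p = 0.0117). CCR7 lost its call without control replicate 1 (limma adjusted p = 0.0764) and without replicate 2 of the DLEU1-downregulated clone (0.148), and NOS3 without replicate 1 or 2 of that clone (0.0823 and 0.0675). The others, named after their values were seen, were FCER2, a B-cell receptor for IgE, which rose by 0.85, and CD55, a complement regulator, which fell by 0.28. CD55 got no call as deposited, where its sign turned (0.08, limma adjusted p = 0.856). After quantile normalization 2 further CD55 probe sets fell. S1PR1, the lymphocyte egress receptor, was too dim to be tested.

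Of 9 tested targets of other KLF proteins, 2 rose and 4 fell (2 and 2 as deposited), with a median log2 change of -0.46. CDKN1B, an inhibitor of cyclin-dependent kinases, read 1311 and 1135 in the control clone and 237 and 299 in the DLEU1-downregulated clone, a log2 change of -2.13 (limma adjusted p = 4.16e-06). The mitotic genes CCNB1 and PTTG1 fell by 0.55 and 0.46 on the log2 scale and were not called as deposited (-0.19 and -0.12). The PTTG1 probe set, the only one of its own, may cross-hybridise. The apoptosis gene BAX rose by 0.47 (limma adjusted p = 0.00734), a call lost without replicate 2 of the DLEU1-downregulated clone (0.0794). Named after their values were seen, SMAD7, an inhibitor of TGF-beta signalling, rose by 0.70 and the coreceptor TGFBR3 fell by 1.21. TGFBR3 read 32.1 and 49.95 in the control clone and 4.5 and 12.8 in the DLEU1-downregulated clone. It passed the brightness filter only through the control clone. Its fall, among the 4 counted, was thus in part set by the filter and supports nothing here.

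Of 6 tested glucocorticoid-responsive genes, 3 fell and 3 did not pass (2 fell as deposited). DDIT4, an mTOR inhibitor, fell by 1.31 on the log2 scale (703.5 to 273.6, limma adjusted p = 9.14e-06), and TSC22D3, a leucine zipper gene induced by glucocorticoids, fell by 1.15 (668.6 to 292, limma adjusted p = 1.58e-05). TXNIP, a thioredoxin-binding protein, fell by 0.37 (limma adjusted p = 0.00205) but not as deposited (-0.01). FKBP5, a chaperone induced by glucocorticoids, had a log2 change of 0.03 (limma adjusted p = 0.694).

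**Figure D4:**
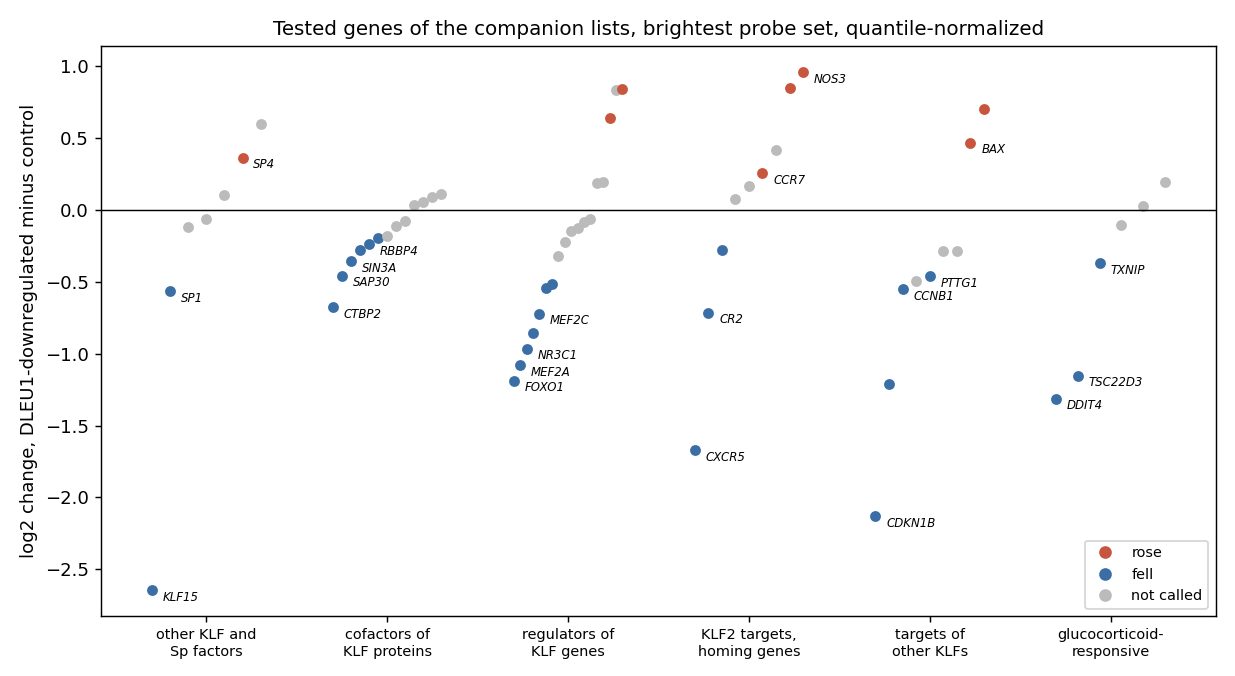
Log2 change after quantile normalization of the brightest probe set of each tested gene in the 6 companion lists, ordered within a list, with the named genes labelled (red rose, blue fell, grey not called). KLF15, CDKN1B and CXCR5 lie lowest, and the cofactors reach from -0.68 (CTBP2) to 0.11 (CREBBP).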

How the data were processed

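The authors deposited 1 table of linear MAS5 signal intensity per probe set, and MAS5 is named in the submitters' processing notes. Its version and target are not given in the sources used here. Here the 62 control probe sets were left out, the 4 arrays were quantile-normalized (values as deposited had unequal trimmed means), and log2(intensity + 16) was taken. The 21845 probe sets with a mean below the 40th percentile (11.4) were not tested. The fit used limma 3.58.1 in R 4.3.3 (lmFit, eBayes with an intensity trend), group as the only term, and calls at an adjusted p under 0.05. Prior degrees of freedom were 6.76, and infinite as deposited. The spread behind a p-value was thus in large part, and as deposited wholly, that of probe sets of similar intensity. Precision is limited by 2 arrays a group. Symbols came from the platform annotation (41091 probe sets with 1 symbol, 1801 with several, 11721 with none), updated through RefSeq GRCh38.p14 for 41037. Gene counts use the brightest probe set. Named genes are every member, DLEU1 and up to 4 called genes of each companion list with the smallest p. Members, lists and tests were chosen with earlier results of these data known. In simulated data with 67, 67 and 66 probe sets changed 1.5-fold, 2-fold and 4-fold, the fit recovered 53.7%, 88.1% and 100% of them. It made 10 false calls among 32768 tested probe sets. The simulated noise depended on intensity alone, with no further spread between probe sets, and far more probe sets passed in the real data. Recovery and false calls there thus do not carry over to this comparison. Alternatives covered scaling, pseudocount, filter, trend, replicate block, threshold, cross-hybridising probe sets and each array left out.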

Additional observations from a re-analysis of the deposited data

How the results depend on the processing

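The 3 KLF genes that rose (KLF10, KLF13 and KLF16) and the fall of KLF12, by brightest probe set, and DLEU1 kept their direction and call in every alternative run, with DLEU1 at -1.43 to -0.99. The fall of KLF6 did not: as deposited and after median centring 1 KLF gene fell, with the brightest KLF6 probe set at 0.0284 and 0.0725, and 1 fell with the mean of a gene's tested probe sets. Without the intensity trend KLF6 also lost its call (limma adjusted p = 0.0728) while KLF2 gained one (0.0252), so that the count stayed at 2. KLF2 was tested only through the high control clone, so its call supports nothing. RBBP4 turned to 0.14 as deposited and 0.18 after median centring, where TXNIP turned to 0.0379. The cause of these turns was not tested. Over all probe sets, 1673 fell as deposited, 10420 rose and 2482 fell after median centring, 3576 and 3580 without the intensity trend, and 3596 and 3562 at a threshold of 0.01, where 6 KLF probe sets fell. With 1 array left out, 3356 to 5310 rose and 3654 to 4768 fell. KLF probe sets that rose were then 4 to 6 and those that fell 4 to 8 (6 without DLEU1-downregulated replicate 1, 4 without its replicate 2), and KLF genes that fell 1 to 2. These fits leave 1 array in a group, assumed to vary like the other group. With the replicate number as a block, 9 KLF probe sets fell and 4 rose, 5527 and 5658 over all probe sets. Deviations of same-numbered arrays correlated at -0.01 over the tested probe sets. With 4 arrays this cannot decide whether same-numbered arrays were paired, and the labels do not say. Without detection calls, dim members such as KLF2, KLF4, KLF9 and KLF11 cannot be called present or absent.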

Other observations

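The nearest tested genes of other KLF genes are given here as counts, where 20.6% of all tested genes rose and 20.6% fell by brightest probe set. Of the 20 nearest tested genes around KLF13 on chromosome 15, 2 rose and 5 fell, with a median log2 change of 0.04, while KLF13 itself had 0.81. Around KLF10 on chromosome 8, 6 rose and 4 fell (median -0.02). Around KLF16 on chromosome 19, 7 rose and 1 fell (median 0.16). Around KLF6 on chromosome 10, 5 rose and 1 fell (median 0.10), and KLF6 had -0.33. Around KLF3 on chromosome 4, 2 rose and 7 fell (median -0.21). Around KLF9 on chromosome 9, 2 rose and 9 fell (median -0.37), and KLF9 itself did not pass. For KLF2, also on chromosome 19, 6 rose and 3 fell (median 0.03). For KLF4, also on chromosome 9, 8 rose and 4 fell (median 0.13), and KLF4 itself did not pass. The probe set of KLF9-DT, a non-coding gene that starts beside KLF9, was too dim to be tested, with 14.3 and 12.6 in the control clone and 7 and 12.1 in the DLEU1-downregulated clone.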
